A study of Homo sapiens with 9 samples.

Results

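The comparison described here sets SKOV-3 cells on the softest gel, 0.5 kPa, against the same cells on the gel of intermediate stiffness, 4 kPa. It uses 6 of the 9 RNA-seq libraries of the series, 3 per gel, chosen by the gel given in the sample labels, and every gene expressed in them. SKOV-3 is an established human epithelial ovarian cancer line with many copies of ERBB2. The cells grew for 3 days in Petri dishes coated with hydrogel of 0.5, 4 or 25 kPa, and the study asked how the stiffness of the substrate changes the growth, skeleton, phenotype and gene expression of such cells. Both gels received the same line and the same culture time, with no drug and no engineered allele, so the stiffness of the coating is the named difference. The 3 libraries on 25 kPa, numbered 2 to 4 in the labels, entered the fit to estimate the spread between libraries, and their levels are given beside those of the pair for context. No source says that libraries of 1 gel came from separate cultures, so the p-values measure only the spread between these libraries, which may be technical. In RNA from a whole dish, fewer cells of a kind and less RNA per cell cannot be told apart.

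Cells sense the stiffness of their support through integrins and focal adhesions, which couple the matrix to actin filaments. Tension in these filaments lets the coactivators YAP and TAZ enter the nucleus, where they act with TEAD factors on targets such as CTGF and CYR61. The same tension depletes monomeric actin and frees the MRTF coactivators of serum response factor (SRF), which binds CArG boxes at immediate early and cytoskeletal genes.

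The gene counts summed to 19630063 to 20609553 per library on 0.5 kPa and to 19609740 to 20262204 per library on 4 kPa. Replicate 3 stood apart on both gels. Its counts differed from those of replicates 1 and 2 by a chi-square of 13.1 to 16.1 per degree of freedom on 0.5 kPa and 21.5 to 24.5 on 4 kPa, while replicates 1 and 2 differed by 3.20 on 0.5 kPa and 3.08 on 4 kPa. In replicate 3 the ATF4 stress genes lay above the mean of replicates 1 and 2 by a median log2 difference of 0.72 on 0.5 kPa and 0.84 on 4 kPa, and the NF-kB cytokines by 0.81 and 0.87. The counts of calls are therefore also given without both of these libraries for the gene lists described, and the values of single genes where the call changed or replicate 3 stood apart. Of 131 called genes followed one by one, 126 were called again without them, the exceptions being CNN1, MYL9, DNAJB9, UPK3B and FZD8. The ovarian carcinoma markers summed to 5903 to 6353 CPM (counts scaled to a library of 1000000) on 0.5 kPa and 5759 to 6652 CPM on 4 kPa, with ERBB2 the most abundant, although MUC16 and WT1 stayed near or below 1 CPM. The markers listed for the line MCF-7 summed to 425.5 to 475.1 CPM on 0.5 kPa and 388.7 to 410.6 CPM on 4 kPa, with CA12 the most abundant. The leukocyte markers summed to at most 0.861 CPM on 0.5 kPa and 0.9 CPM on 4 kPa, and CD3E had 0 counts in all 6 libraries. The endothelial and adipocyte markers summed to 2.77 to 3.79 CPM on 0.5 kPa and 3.55 to 3.98 CPM on 4 kPa, and the fibroblast and mesothelial markers to 82.4 to 98.5 CPM and 93.7 to 103 CPM.

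On the softer gel the cells held less RNA of mechanosensitive growth factor genes, immediate early genes and several keratins, and more RNA of fibronectin, some matrix metalloproteases, the mitochondrial genome and the nuclear RNA MALAT1. Of 16335 genes tested, 319 passed an adjusted p of 0.05 (1.95%), with 144 higher (0.882%) and 175 lower (1.07%) on 0.5 kPa. Unless DESeq2 is named, adjusted p here is that of edgeR's quasi-likelihood test after Benjamini-Hochberg adjustment over all tested genes. Such genes are said to have been called, to have risen or to have fallen. The value after ± beside a log2 fold change is its standard error, derived from the F statistic of that test. A change of at least 2-fold was called for 20 genes that rose (0.122%) and 37 that fell (0.227%). The median log2 fold change, 0.5 kPa minus 4 kPa, was 0.01 over all tested genes, 0.57 over the called genes that rose and -0.59 over those that fell. In all 319 called genes the 3 libraries of 0.5 kPa did not overlap with the 3 of 4 kPa, a separation that 1532 tested genes (9.38%) showed upward and 1480 (9.06%) downward.

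The number of calls moved strongly with the libraries used. Without both replicate 3 libraries it was 892, with 458 higher (2.78%) and 434 lower (2.63%) of 16494 genes tested, and 290 of the 319 genes were called again in the same direction. With 4 kPa replicate 3 alone left out 543 genes were called. The calls numbered 189 with 0.5 kPa replicate 1 left out and 125 with 0.5 kPa replicate 2 left out. They numbered 187 with 4 kPa replicate 1, 139 with 4 kPa replicate 2 and 211 with 25 kPa replicate 4 left out. In all, 106 genes, 38 higher and 68 lower, were called whichever of the 9 libraries was left out, among them 41 of the 57 genes changed at least 2-fold. Below, a gene that lost its call when a library was left out is given with its highest adjusted p over these 9 fits and the library concerned. Gene positions are those of the deposited table, in build hg38.

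**Figure D1:**
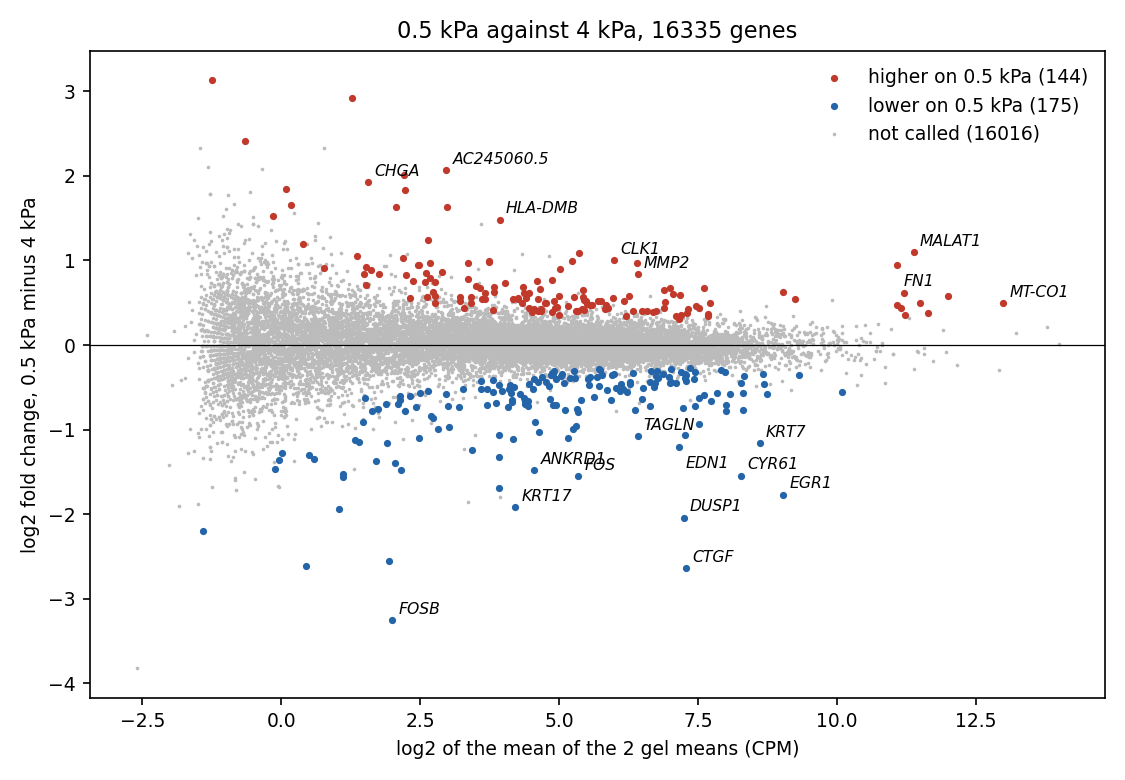
Log2 fold change, 0.5 kPa minus 4 kPa, of the 16335 tested genes against the log2 of their mean CPM on the pair of gels. The 144 genes called higher on 0.5 kPa are red, the 175 called lower are blue and the others grey. CTGF, DUSP1 and EGR1 stand lowest among the abundant genes, and MALAT1, FN1 and the mitochondrial MT-CO1 are the most abundant of the labelled genes above 0.

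**Figure D2:**
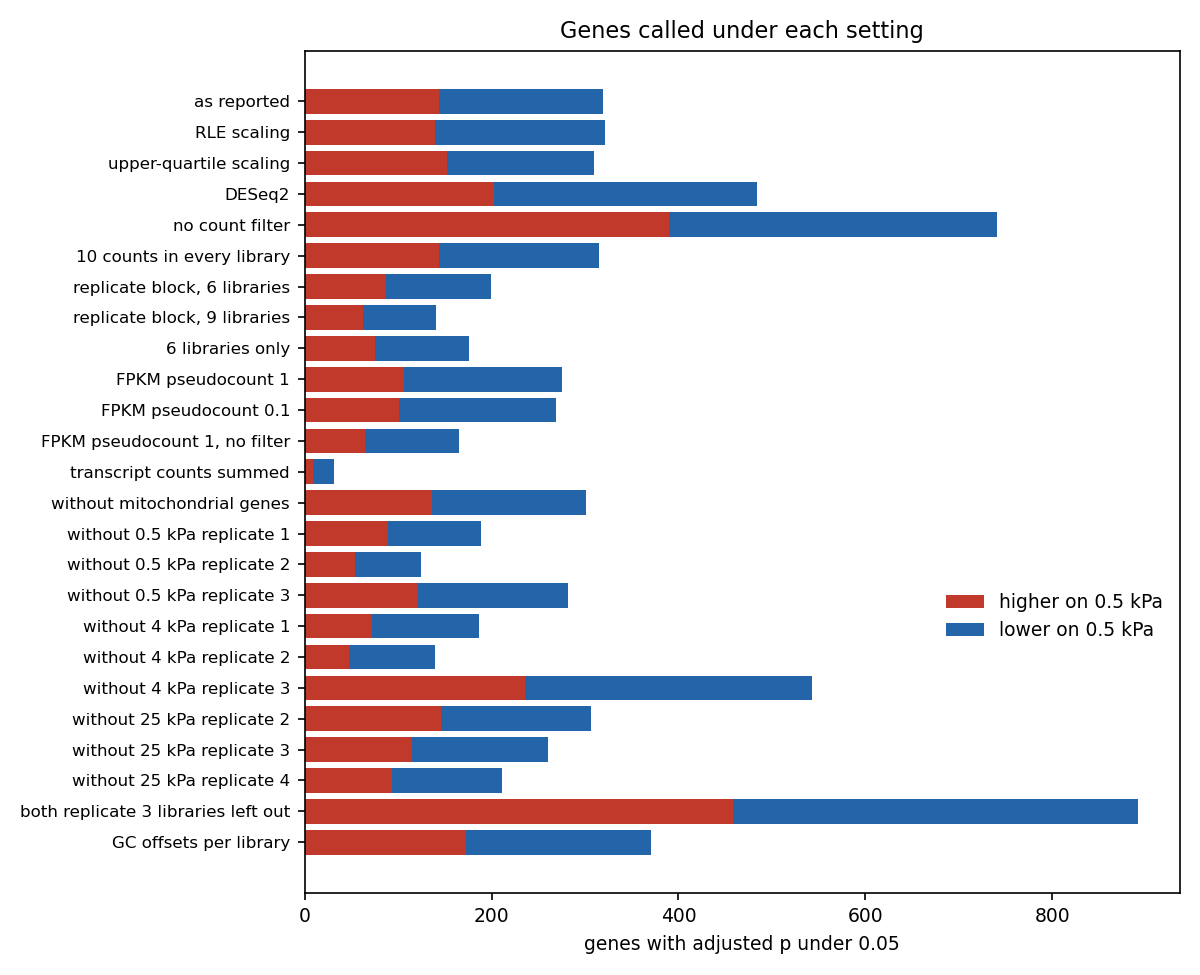
Number of genes with an adjusted p under 0.05, higher on 0.5 kPa in red and lower in blue, as reported (319) and under each alternative setting. The bars run between 31 calls with summed transcript counts and 892 without both replicate 3 libraries.

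Targets of YAP and TAZ were mostly lower on the softer gel. Of 27 tested members of a list of such targets, 8 fell, 1 rose and 18 did not pass, with a median log2 fold change of -0.28 against 0.01 over all genes. The share called was 33.3%, against 1.95% of all genes. Without both replicate 3 libraries 15 fell and 1 rose, where 2.63% of all genes fell and 2.78% rose. Of the 8 that fell, 5 kept the call whichever library was left out. The tested members lay below 0 in 25 of 27 cases. YAP1 itself had 181, 201 and 199.6 CPM on 0.5 kPa, against 188, 188 and 173 CPM on 4 kPa, and did not pass (log2 fold change 0.08 ± 0.07, adjusted p = 0.683).

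CTGF (also CCN2, chr6:131948176-131951373) encodes a secreted matricellular protein that binds integrins and growth factors. It had 41.9, 39.5 and 48.7 CPM on 0.5 kPa, against 276, 266 and 267 CPM on 4 kPa. Every library on the softer gel was low, and the lowest library on 4 kPa stood far above the highest on 0.5 kPa (log2 fold change -2.63 ± 0.09, adjusted p = 6.00e-09). CYR61 (CCN1, chr1:85580761-85583962), a matricellular protein of the same family, had 162, 157 and 155 CPM on 0.5 kPa, against 453, 455 and 475 CPM on 4 kPa. Its libraries did not overlap either (log2 fold change -1.54 ± 0.06, adjusted p = 6.15e-08). Without both replicate 3 libraries the log2 fold changes were -2.73 for CTGF (adjusted p = 5.34e-12) and -1.51 for CYR61 (adjusted p = 1.24e-09). ANKRD1, a muscle ankyrin repeat protein and a standard YAP readout, had 11.7, 11.5 and 13.9 CPM on 0.5 kPa, against 30.9, 30.1 and 42.9 CPM on 4 kPa, with replicate 3 the highest on each gel (log2 fold change -1.48 ± 0.13, adjusted p = 6.18e-05). EDN1, which encodes the vasoconstrictor peptide endothelin-1, had 87.6, 81.03 and 91.5 CPM on 0.5 kPa, against 185, 195 and 219.9 CPM on 4 kPa and fell (log2 fold change -1.21 ± 0.09, adjusted p = 1.41e-05). AMOTL2 (chosen after its value was seen), a YAP-binding scaffold of cell junctions that is itself a YAP target, averaged 165 ± 19.4 CPM on 0.5 kPa and 259.6 ± 12.2 CPM on 4 kPa (for CPM and FPKM, means with the SD of 3 libraries, here and below) and fell (log2 fold change -0.66 ± 0.08, adjusted p = 0.00127).

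The remaining members named from the list were also chosen after their values were seen. AJUBA, a LIM protein of adherens junctions, AXL, a receptor tyrosine kinase, and F3, the tissue factor that starts coagulation, fell by 0.63, 0.34 and 0.45 on the log2 scale. These 3 calls did not hold in every set of libraries, with adjusted p of 0.147 for AJUBA, 0.124 for AXL and 0.0779 for F3 with 0.5 kPa replicate 2 left out. NT5E, the ectonucleotidase CD73, went the other way with 142, 149.9 and 188 CPM on 0.5 kPa, against 96.5, 104 and 115 CPM on 4 kPa (log2 fold change 0.61 ± 0.10, adjusted p = 0.00848), and its adjusted p was 0.0565 with 4 kPa replicate 2 left out (call lost in 1 of 9 such fits). THBS1, encoding thrombospondin-1, had 1688, 1680 and 1379 CPM on 0.5 kPa, against 2414, 2332 and 1727 CPM on 4 kPa, with replicate 3 the lowest on each gel, and did not pass (log2 fold change -0.45 ± 0.12, adjusted p = 0.0946). It was called when both replicate 3 libraries were left out (-0.49, adjusted p = 4.32e-04) and by DESeq2 (adjusted p = 0.01465).

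The promoters of 4 of these strongly lower genes are shown because they hold the letters by which TEAD or SRF are known to bind. They are the ones that do so among the fallen members of their lists. Of 7 YAP and TAZ targets that fell and had a window, 2 held a TEAD core and 0 a CArG box, and of 12 such immediate early factors 1 held a TEAD core and 1 a CArG box. Counting members that did not fall as well, 8 of 19 windows of YAP and TAZ targets held a TEAD core (42.1%), as did 4 of 28 of immediate early factors (14.3%). Each window runs over 250 bases before and 50 after the start site nearest to the gene's 5′ end, in RefSeq's sequence of build GRCh38.p14, 5′ to 3′ on the gene's strand. They lie at chr6:131951323-131951622 (minus strand) for CTGF, chr10:90921038-90921337 (minus strand) for ANKRD1, chr5:138465229-138465528 (plus strand) for EGR1 and chr10:62819118-62819417 (minus strand) for EGR2. The deposited EGR2 gene runs over chr10:62811996-62919900, so its window lies far from that 5′ end. Which EGR2 start site these cells use was not tested. Capitals mark the TEAD core GGAATG, on either strand, and CArG boxes.
CTGF: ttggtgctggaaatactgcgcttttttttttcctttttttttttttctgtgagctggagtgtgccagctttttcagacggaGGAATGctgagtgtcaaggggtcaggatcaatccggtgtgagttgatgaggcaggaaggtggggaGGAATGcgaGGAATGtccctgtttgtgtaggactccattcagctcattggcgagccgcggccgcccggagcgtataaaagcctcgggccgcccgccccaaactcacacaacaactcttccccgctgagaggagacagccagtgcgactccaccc
ANKRD1: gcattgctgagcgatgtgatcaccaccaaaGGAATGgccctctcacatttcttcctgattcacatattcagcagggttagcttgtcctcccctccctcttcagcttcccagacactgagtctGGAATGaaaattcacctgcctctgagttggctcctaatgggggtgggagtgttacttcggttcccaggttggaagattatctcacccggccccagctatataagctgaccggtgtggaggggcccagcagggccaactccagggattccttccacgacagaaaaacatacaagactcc
EGR1: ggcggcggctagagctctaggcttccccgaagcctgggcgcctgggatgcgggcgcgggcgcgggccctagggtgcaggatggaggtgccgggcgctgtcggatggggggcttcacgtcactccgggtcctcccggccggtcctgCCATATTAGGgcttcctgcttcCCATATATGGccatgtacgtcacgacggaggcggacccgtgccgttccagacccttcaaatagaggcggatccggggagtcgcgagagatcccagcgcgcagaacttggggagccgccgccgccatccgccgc
EGR2: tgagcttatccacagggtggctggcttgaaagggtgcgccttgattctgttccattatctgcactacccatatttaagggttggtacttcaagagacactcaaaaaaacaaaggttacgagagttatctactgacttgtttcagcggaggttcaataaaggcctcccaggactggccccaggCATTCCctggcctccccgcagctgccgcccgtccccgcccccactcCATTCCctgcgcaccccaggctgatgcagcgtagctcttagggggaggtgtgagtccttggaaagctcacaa
CTGF held 3 TEAD cores and no CArG box, ANKRD1 held 2 TEAD cores, EGR1 held 2 CArG boxes and EGR2 held 2 TEAD cores in the reverse orientation. Over all 11573 tested genes with a window in the table, 10.7% held a TEAD core, as did 22 of 128 called genes that fell (17.2%) and 10 of 89 that rose (11.2%). A CArG box stood in 127 of all windows, in 5 of the 128 that fell (3.91%) and in 1.12% of the 89 that rose. The AP-1 letters TGANTCA were in 4.57% of all windows, 7.03% of those of genes that fell and 3.37% of those of genes that rose, and the cyclic AMP response letters TGACG in 33.7%, 25.8% and 32.6%. Both strands were searched, the 4 motifs were counted separately, and a match is a description of the letters only.

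Immediate early factors are listed here as genes that serum, stretch or stress switch on within minutes, and many encode transcription factors. Their list had the lowest median among the lists with at least 15 tested members. Of 35 tested members 15 fell, 1 rose and 19 did not pass, with a median log2 fold change of -0.40. The share called was 45.7%, against 1.95% of all genes. When both replicate 3 libraries were left out 18 fell and 2 rose, where 2.63% of all genes fell and 2.78% rose. Of the 15 that fell, 9 held the call whichever library was left out.

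EGR1 (chr5:138465490-138469315), a zinc finger factor, had 234, 263 and 216 CPM on 0.5 kPa, against 829, 884 and 716 CPM on 4 kPa. All 3 libraries on 4 kPa were high and the gels did not overlap (log2 fold change -1.77 ± 0.10, adjusted p = 2.26e-06, and -1.79 with an adjusted p of 6.14e-09 without both replicate 3 libraries). FOS, a subunit of AP-1, had 20.4, 23.7 and 17.9 CPM on 0.5 kPa, against 59.2, 62.8 and 59.8 CPM on 4 kPa (log2 fold change -1.55 ± 0.13, adjusted p = 4.95e-05). FOSB, its paralogue, was scarce on the softer gel, with 1.07, 0.659 and 0.527 CPM on 0.5 kPa, against 8.05, 7.12 and 6.55 CPM on 4 kPa (log2 fold change -3.26 ± 0.22, adjusted p = 7.66e-06). CSRNP1, a nuclear factor first described as induced by AXIN1, had 9.0, 9.27 and 7.47 CPM on 0.5 kPa, against 21.9, 22.98 and 19.9 CPM on 4 kPa and fell (log2 fold change -1.33 ± 0.11, adjusted p = 4.95e-05). ATF3, a stress-induced factor, had 5.11, 4.71 and 11.7 CPM on 0.5 kPa, against 18.6, 18.6 and 32.4 CPM on 4 kPa. Replicate 3 was the highest on each gel, and still the gels did not overlap. ATF3 fell (log2 fold change -1.69 ± 0.32, adjusted p = 0.0167), with an adjusted p of 0.0857 with 0.5 kPa replicate 2 left out (call lost in 2 of 9 such fits) and, without both replicate 3 libraries, a log2 fold change of -1.92 (adjusted p = 1.09e-05).

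Further members were picked for naming once their values were known. JUN, the partner of FOS in AP-1, had 221, 211 and 218 CPM on 0.5 kPa, against 318, 329.9 and 324 CPM on 4 kPa (log2 fold change -0.58 ± 0.06, adjusted p = 2.87e-04), a smaller fall than that of FOS. KLF6, a zinc finger factor, had 197, 192 and 197 CPM on 0.5 kPa, against 318, 312 and 333 CPM on 4 kPa (log2 fold change -0.71 ± 0.06, adjusted p = 5.72e-05), although the sum of its deposited transcript counts changed the other way (0.73, adjusted p = 0.0491). SGK1, a kinase that serum and glucocorticoids induce, had 9.78, 9.68 and 10.1 CPM on 0.5 kPa, against 19.8, 19.4 and 22.6 CPM on 4 kPa (log2 fold change -1.06 ± 0.09, adjusted p = 6.00e-05). The libraries of these 3 genes varied little within a gel and did not overlap. EGR3 and EGR2 were low everywhere, with averages of 1.12 ± 0.378 CPM on 0.5 kPa and 6.55 ± 1.91 CPM on 4 kPa for EGR3 and 0.852 ± 0.274 CPM on 0.5 kPa and 3.27 ± 0.921 CPM on 4 kPa for EGR2. Their log2 fold changes were -2.55 ± 0.27 and -1.94 ± 0.33, with adjusted p of 2.97e-04 and 0.00949, and that of EGR2 became 0.0565 with 4 kPa replicate 2 left out (call lost in 1 of 9 such fits). IER2 and IER3, short-lived early response proteins, fell by 0.55 and 0.78 on the log2 scale, and the adjusted p of IER3 was 0.0554 with 0.5 kPa replicate 2 left out (call lost in 1 of 9 such fits). MAFK, KLF2 and BHLHE40 also fell by 0.50, 0.65 and 0.39, and each lost its call with at least 1 library left out (adjusted p of 0.0956 for MAFK, 0.198 for KLF2 and 0.0622 for BHLHE40 with 0.5 kPa replicate 2 left out). NR4A1, a nuclear receptor of the same early wave, did not pass (log2 fold change -0.75 ± 0.18, adjusted p = 0.0541). DESeq2 called it lower (adjusted p = 0.0269). ID2, an inhibitor of basic helix-loop-helix factors, was the member that rose, with 70.5, 71.9 and 49.1 CPM on 0.5 kPa, against 43.3, 45.5 and 44.7 CPM on 4 kPa (log2 fold change 0.52 ± 0.12, adjusted p = 0.0463) and an adjusted p of 0.21 with 0.5 kPa replicate 2 left out (call lost in 7 of 9 such fits).

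**Figure D3:**
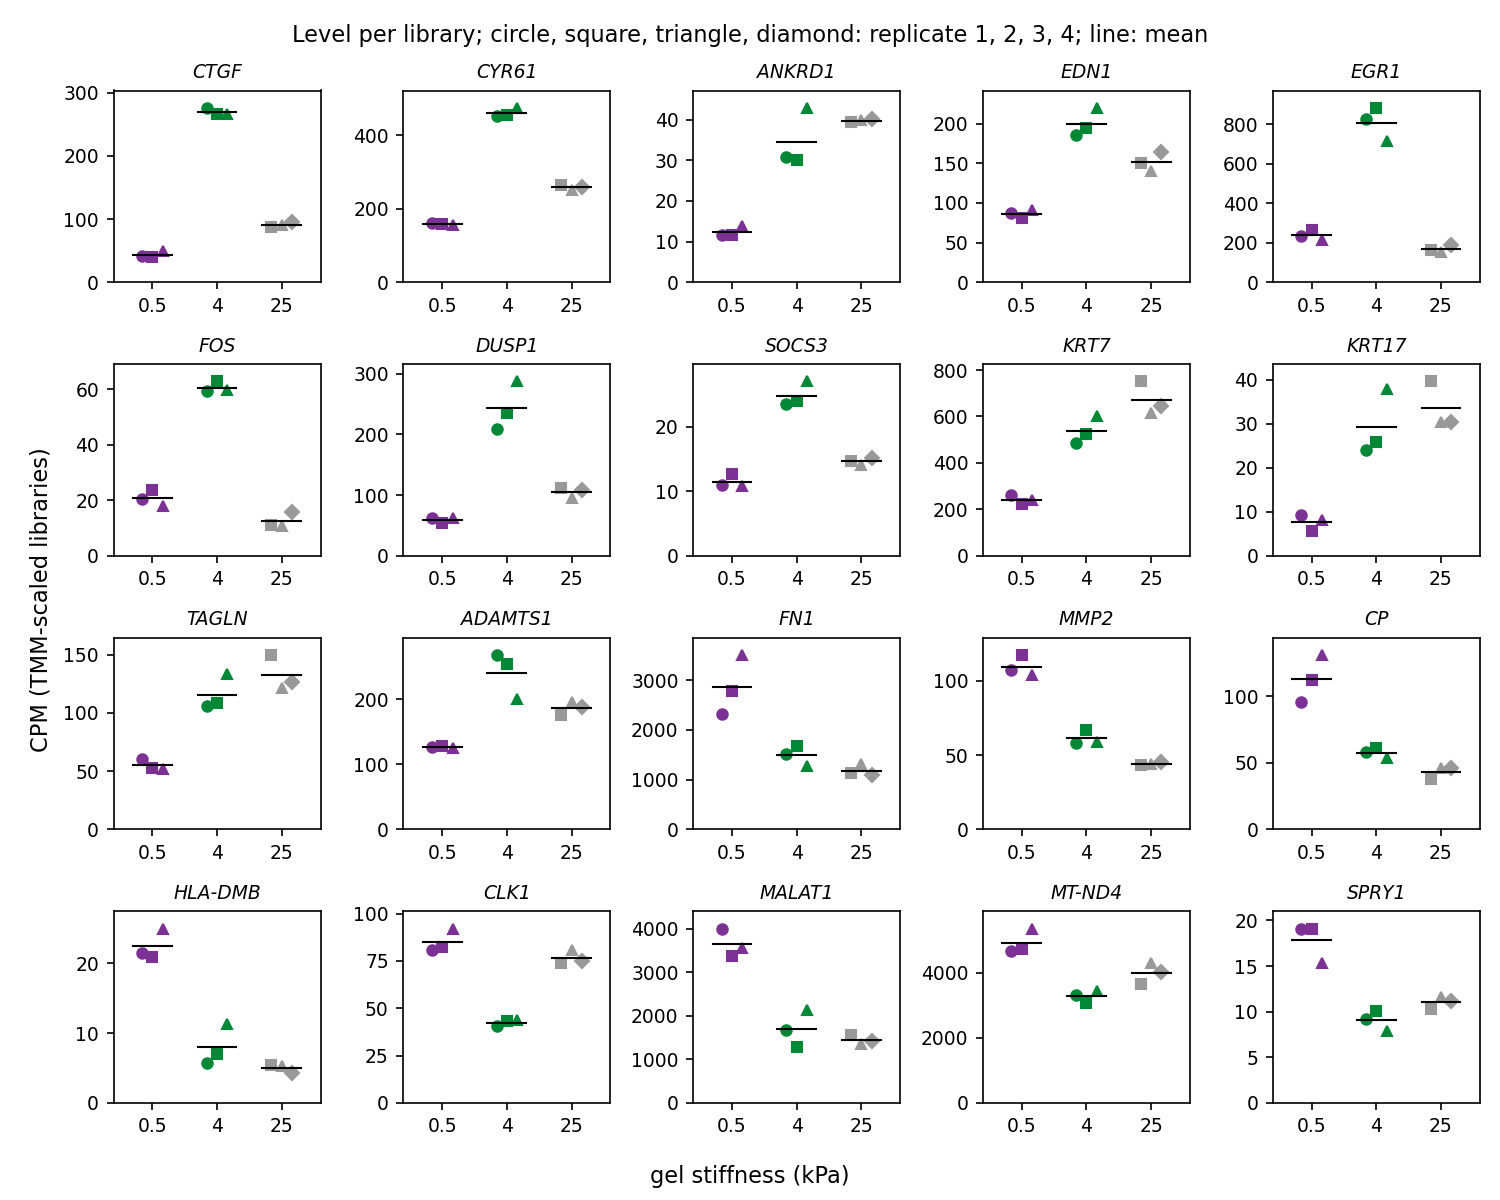
CPM of 20 named genes in every library, on a linear axis from 0, by gel stiffness (0.5, 4 and 25 kPa, 3 libraries each). The lines are means and the symbols give the replicate number. CTGF, EGR1, FOS and DUSP1 have their highest means on 4 kPa, KRT7, KRT17 and TAGLN their lowest on 0.5 kPa, and FN1, MMP2, CP, HLA-DMB and MALAT1 their highest on 0.5 kPa.

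Genes that dampen or follow ERK signalling moved in both directions. Among 23 tested members 6 fell, 3 rose and 14 did not pass, and the median log2 fold change was 0.10, although it was -0.01 in 1 alternative setting. The share called was 39.1%, against 1.95% of all genes. With replicate 3 of both gels left out 6 fell and 5 rose, where 2.63% of all genes fell and 2.78% rose. DUSP1, a nuclear phosphatase that inactivates MAP kinases, had 62.2, 53.5 and 62.1 CPM on 0.5 kPa, against 209, 236 and 287 CPM on 4 kPa. Its libraries were alike on 0.5 kPa and spread on 4 kPa, with replicate 3 the highest there (log2 fold change -2.04 ± 0.12, adjusted p = 1.84e-06, and -1.94 with an adjusted p of 6.14e-09 without both replicate 3 libraries). DUSP5, the phosphatase specific to ERK, averaged 16.4 ± 2.98 CPM on 0.5 kPa and 33.5 ± 5.36 CPM on 4 kPa and fell (log2 fold change -1.02 ± 0.14, adjusted p = 0.00162). HBEGF, a membrane-bound ligand of the EGF receptor, averaged 11.2 ± 1.37 CPM on 0.5 kPa and 18.01 ± 1.44 CPM on 4 kPa and fell as well (log2 fold change -0.68 ± 0.11, adjusted p = 0.0067). SPRY1, a Sprouty inhibitor of receptor tyrosine kinase signalling, went up instead, with 19.1, 19.1 and 15.3 CPM on 0.5 kPa, against 9.15, 10.1 and 7.92 CPM on 4 kPa (log2 fold change 0.98 ± 0.12, adjusted p = 0.00117). The ETS factors ETV1 and ETV4, named after their values were seen, rose by 1.20 and 0.74, but with adjusted p of 0.192 for ETV1 with 0.5 kPa replicate 2 left out and 0.165 for ETV4 with 4 kPa replicate 2 left out. DUSP8 (a MAP kinase phosphatase), EPHA2 (an ephrin receptor) and LIF (a cytokine of the interleukin-6 family) made up the other falls, at -0.66, -0.32 and -0.48, and each lost the call without 1 or more libraries (adjusted p of 0.0953 for DUSP8 with 0.5 kPa replicate 1 left out and 0.138 for EPHA2 and 0.121 for LIF with 0.5 kPa replicate 2 left out). DUSP8 and EPHA2 were chosen after their values were seen.

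The actin cytoskeleton and SRF targets leaned lower. Of 55 tested members 7 fell and 0 rose in edgeR (22 lower and 3 higher at an unadjusted p under 0.05, 14 lower and 0 higher in DESeq2), 42 lay below 0 and the median log2 fold change was -0.17. The share called in edgeR was 12.7%, against 1.95% of all genes. Leaving out both replicate 3 libraries gave 18 that fell and 1 that rose, where 2.63% of all genes fell and 2.78% rose. Among the 7, RHOB and TAGLN held their call in every set of libraries. TAGLN, the actin-bundling transgelin, had 60.5, 52.5 and 51.5 CPM on 0.5 kPa, against 106, 108 and 133 CPM on 4 kPa (log2 fold change -1.08 ± 0.11, adjusted p = 2.47e-04). RHOB, a small GTPase of endosomes and stress fibres that is itself an early response gene, had 111, 101 and 86.4 CPM on 0.5 kPa, against 199.6, 218 and 205 CPM on 4 kPa (log2 fold change -1.06 ± 0.09, adjusted p = 4.95e-05). CNN1 and MYL9, contractile proteins of smooth muscle, fell as well at low levels, with averages of 0.132 CPM on 0.5 kPa and 0.624 CPM on 4 kPa for CNN1 and 0.538 CPM on 0.5 kPa and 1.4 CPM on 4 kPa for MYL9. CNN1 rested on 4, 3 and 1 counts on 0.5 kPa, against 11, 14 and 13 counts on 4 kPa. Their adjusted p were 0.0232 and 0.0246, and 0.0676 and 0.072 with both replicate 3 libraries left out. With single libraries left out the adjusted p of CNN1 was 0.099 with 4 kPa replicate 2 left out (call lost in 4 of 9 such fits) and that of MYL9 was 0.124 with 0.5 kPa replicate 2 left out (call lost in 5 of 9 such fits). PDLIM7, CNN2 and LIMK2, chosen after their values were seen, fell by 0.40, 0.38 and 0.34, with adjusted p of 0.105 for PDLIM7 with 0.5 kPa replicate 2 left out and 0.176 for CNN2 and 0.175 for LIMK2 with 4 kPa replicate 2 left out. The abundant actins, also chosen after their values were seen, did not pass in edgeR. DESeq2 called ACTG1 lower (adjusted p = 0.00852) but not ACTB. ACTB had 2663, 2502 and 2058 CPM on 0.5 kPa, against 2872, 3080 and 2855 CPM on 4 kPa (log2 fold change -0.29 ± 0.09, adjusted p = 0.172) and ACTG1 had 7408, 6778 and 6768 CPM on 0.5 kPa, against 7986, 8509 and 9105 CPM on 4 kPa (log2 fold change -0.29 ± 0.08, adjusted p = 0.096).

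Focal adhesion genes and the tubulins gave 1 call between them. Among 34 focal adhesion and integrin genes PXN alone was called (2.94%), near the 1.95% called over all tested genes. Without both replicate 3 libraries 3 were called lower, where 2.63% of all genes were. PXN, the adaptor paxillin, had 150.1, 149 and 146 CPM on 0.5 kPa, against 178, 177 and 182 CPM on 4 kPa (log2 fold change -0.27 ± 0.06, adjusted p = 0.0438), and its adjusted p was 0.173 with 0.5 kPa replicate 2 left out (call lost in 8 of 9 such fits). Of 20 tubulins 0 were called in edgeR (4 lower and 1 higher at an unadjusted p under 0.05, 2 lower in DESeq2), and 2 were lower and 1 higher with both replicate 3 libraries left out. The median log2 fold change of the tubulins was -0.14. In TUBA4A, which had 72.5, 72.5 and 45.6 CPM on 0.5 kPa, against 94.9, 102 and 74.01 CPM on 4 kPa, replicate 3 was the lowest on each gel (log2 fold change -0.51 ± 0.16, adjusted p = 0.153, and -0.44 with an adjusted p of 0.00317 when replicate 3 was left out on both gels). DESeq2 called TUBA4A lower (adjusted p = 0.0446). Of 35 Hippo pathway components 1 was called (2.86%), also near the share over all genes. It was NF2, which encodes merlin and fell (log2 fold change -0.34 ± 0.07, adjusted p = 0.0285). Its adjusted p was 0.138 with 4 kPa replicate 2 left out (call lost in 6 of 9 such fits). Without both replicate 3 libraries 4 of the 35 components were called lower and 0 higher.

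Among keratins KRT7, KRT17, KRT80 and KRT14 were lower on the softer gel. Of 21 tested keratins and desmosomal genes 4 fell, all 4 whichever library was left out, and 0 rose in edgeR (8 lower and 0 higher at an unadjusted p under 0.05, 5 lower and 0 higher in DESeq2). The share called in edgeR was 19.05%, against 1.95% of all genes. The fit without both replicate 3 libraries gave 5 that fell and 0 that rose, where 2.63% of all genes fell and 2.78% rose. KRT7 (chr12:52232520-52252186), a simple-epithelial keratin and an ovarian carcinoma marker, had 261, 222 and 242 CPM on 0.5 kPa, against 488, 527 and 604 CPM on 4 kPa (log2 fold change -1.16 ± 0.10, adjusted p = 5.85e-05). Its antisense neighbour KRT7-AS averaged 1.82 CPM on 0.5 kPa and 4.74 CPM on 4 kPa and also fell (log2 fold change -1.37 ± 0.21, adjusted p = 0.00386), and with the strand setting unknown the reads of the pair cannot be told apart. KRT17, a keratin of stressed and wounded epithelium, had 9.34, 5.73 and 8.19 CPM on 0.5 kPa, against 24.1, 25.9 and 37.8 CPM on 4 kPa (log2 fold change -1.91 ± 0.20, adjusted p = 2.63e-04). In KRT7 and KRT17 every library on the softer gel was below every library on 4 kPa. KRT80, a keratin of differentiating epithelium, had 243, 216 and 241 CPM on 0.5 kPa, against 380.2, 406 and 408 CPM on 4 kPa (log2 fold change -0.77 ± 0.07, adjusted p = 7.72e-05). KRT14, the basal keratin, averaged 1.12 CPM on 0.5 kPa and 3.22 CPM on 4 kPa and fell (log2 fold change -1.53 ± 0.21, adjusted p = 0.00239). KRT17 and KRT14 resemble each other and have pseudogenes, so how reads were shared among them is uncertain. The other simple keratins did not pass, with log2 fold changes of -0.21 ± 0.10 for KRT8, 0.05 ± 0.08 for KRT18 and -0.15 ± 0.10 for KRT19, nor did the basal KRT5, at -0.49 ± 0.19 (adjusted p = 0.269). Per length, KRT7 averaged 59.5 ± 4.81 FPKM on 0.5 kPa and 133 ± 14.2 FPKM on 4 kPa, while KRT8 averaged 77.3 ± 9.63 FPKM and 89.8 ± 1.72 FPKM.

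Matrix genes and proteases moved in both directions. Among 43 matrix genes 3 rose and 2 fell, with a median log2 fold change of 0.08. The share called was 11.6%, against 1.95% of all genes. Without both replicate 3 libraries 5 rose and 4 fell, where 2.78% of all genes rose and 2.63% fell. In that fit the median turned to -0.03, and it lay below 0 in 1 other setting. FN1 (chr2:215360440-215436172), encoding fibronectin, had 2316, 2789 and 3502 CPM on 0.5 kPa, against 1519, 1665 and 1278 CPM on 4 kPa. All 3 libraries of the softer gel lay above all 3 of 4 kPa, and replicate 3 was the highest on 0.5 kPa and the lowest on 4 kPa (log2 fold change 0.95 ± 0.14, adjusted p = 0.0037, and 0.68 with an adjusted p of 5.70e-04 without both). TGM2, a transglutaminase that crosslinks fibronectin, had 50.4, 53.2 and 55.7 CPM on 0.5 kPa, against 30.4, 36.6 and 34.4 CPM on 4 kPa (log2 fold change 0.65 ± 0.09, adjusted p = 0.00162). COL6A1, a chain of collagen VI, averaged 25.2 ± 3.49 CPM on 0.5 kPa and 17.1 ± 0.689 CPM on 4 kPa (log2 fold change 0.56 ± 0.11, adjusted p = 0.018), and its adjusted p was 0.0905 with 0.5 kPa replicate 2 left out (call lost in 4 of 9 such fits). The collagen crosslinking enzymes LOXL1 and LOXL2 fell by 0.48 and 0.29, with adjusted p of 0.0647 for LOXL1 and 0.199 for LOXL2 with 0.5 kPa replicate 2 left out. LOXL2, chosen after its value was seen, did not keep its direction in the summed transcript counts.

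Among 24 matrix proteases and inhibitors 3 rose and 4 fell, and 6 of the 7 held the call whichever library was left out. The share called was 29.2%, against 1.95% of all genes. Leaving out both replicate 3 libraries gave 5 that rose and 5 that fell, where 2.78% of all genes rose and 2.63% fell. MMP2 (chr16:55389700-55506691), the gelatinase A, had 107, 117 and 104 CPM on 0.5 kPa, against 58.2, 66.7 and 58.7 CPM on 4 kPa (log2 fold change 0.84 ± 0.08, adjusted p = 7.72e-05). MMP13, a collagenase, had 13.9, 14.8 and 12.2 CPM on 0.5 kPa, against 6.5, 7.56 and 6.75 CPM on 4 kPa (log2 fold change 0.97 ± 0.11, adjusted p = 6.39e-04). MMP7, or matrilysin, chosen after its value was seen, had 38.8, 38.6 and 50.01 CPM on 0.5 kPa, against 19.9, 22.6 and 25.7 CPM on 4 kPa (log2 fold change 0.90 ± 0.14, adjusted p = 0.00497). These 3 rose and their libraries did not overlap between gels. Among the genes that fell, ADAMTS1, a secreted protease that cleaves proteoglycans, had 127, 128 and 126 CPM on 0.5 kPa, against 268, 255 and 200.1 CPM on 4 kPa (log2 fold change -0.93 ± 0.10, adjusted p = 2.84e-04). MMP24 and MMP10, chosen after their values were seen, fell by 0.64 and 0.70, and the adjusted p of MMP10 was 0.117 with 0.5 kPa replicate 2 left out (call lost in 6 of 9 such fits).

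Fibroblast and mesothelial markers, listed for cells that could bring matrix RNA, gave 1 call among 9 tested, UPK3B, a urothelial and mesothelial membrane protein that fell (log2 fold change -0.52 ± 0.11, adjusted p = 0.0268), with an adjusted p of 0.0849 with 0.5 kPa replicate 2 left out (call lost in 5 of 9 such fits) and of 0.0565 with both replicate 3 libraries left out. COL3A1, a chain of collagen III, averaged 1.48 ± 0.387 CPM on 0.5 kPa and 0.626 ± 0.131 CPM on 4 kPa, and LUM, the proteoglycan lumican, averaged 9.68 ± 0.947 CPM on 0.5 kPa and 7.43 ± 0.38 CPM on 4 kPa. For both genes the libraries lay higher on 0.5 kPa without overlap but did not pass (log2 fold change 1.23 ± 0.35, adjusted p = 0.109 for COL3A1, log2 fold change 0.38 ± 0.11, adjusted p = 0.122 for LUM), and LUM had an adjusted p of 0.0469 with both replicate 3 libraries left out. PDGFRB, a receptor of platelet-derived growth factor on mesenchymal cells, averaged 1.21 ± 0.249 CPM on 0.5 kPa and 2.27 ± 0.42 CPM on 4 kPa, lower without overlap, and did not pass (log2 fold change -0.91 ± 0.22, adjusted p = 0.0547). COL1A1 had 37.4, 40.99 and 36.5 CPM on 0.5 kPa, against 43.1, 40.9 and 39.1 CPM on 4 kPa, which overlapped. The part of such cells in the matrix genes' values was not tested.

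All 15 tested genes of the mitochondrial genome lay higher on the softer gel. They encode subunits of the respiratory chain and the mitochondrial ribosomal RNAs and are transcribed as long polycistronic RNAs. Of the 15, 10 rose (against 0.882% of all genes), 14 had libraries that did not overlap (against 9.38%), and the median log2 fold change was 0.47. All 15 were higher at an unadjusted p under 0.05, 14 were called higher by DESeq2 and all 15 when both replicate 3 libraries were left out. MT-ND4 (in the table's mitochondrial annotation at chrMT:10760-12137), a complex I subunit, had 4675, 4742 and 5360 CPM on 0.5 kPa, against 3317, 3082 and 3448 CPM on 4 kPa (log2 fold change 0.59 ± 0.09, adjusted p = 0.00327). MT-ND5 had 2640, 2786 and 3179 CPM on 0.5 kPa, against 1955, 1883 and 1763 CPM on 4 kPa (log2 fold change 0.62 ± 0.10, adjusted p = 0.00434). These were the 2 members called whichever library was left out, and in both each library on 0.5 kPa exceeded each on 4 kPa. MT-ATP6, of the ATP synthase, had 3305, 3196 and 3682 CPM on 0.5 kPa, against 2321, 2219 and 2671 CPM on 4 kPa (log2 fold change 0.50 ± 0.09, adjusted p = 0.0122), and its adjusted p was 0.0923 with 4 kPa replicate 2 left out (call lost in 2 of 9 such fits). MT-CO1, MT-CYB and MT-ND1, chosen after their values were seen, rose by 0.49, 0.43 and 0.36, with adjusted p of 0.108 for MT-CO1, 0.142 for MT-CYB and 0.217 for MT-ND1 with 4 kPa replicate 2 left out. MT-ND2, MT-ND4L, MT-ND6 and MT-CO3 rose by 0.47, 0.63, 0.54 and 0.38, with adjusted p of 0.138 for MT-ND2, 0.0682 for MT-ND6 and 0.178 for MT-CO3 with 4 kPa replicate 2 left out and 0.0927 for MT-ND4L with 0.5 kPa replicate 2 left out. The ribosomal RNAs MT-RNR1 and MT-RNR2 did not pass (0.25 ± 0.07 and 0.21 ± 0.07). As a share of all counts, mitochondrial genes took 5.28%, 5.21% and 5.74% on 0.5 kPa, against 4.06%, 3.99% and 4.41% on 4 kPa. The genes share these libraries and are cut from long shared RNAs, so they are not independent of each other.

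Nuclear genes of the respiratory chain and the cytoplasmic ribosomal proteins gave 0 calls in edgeR and in DESeq2 among 47 and 75 tested members, with 2 and 6 higher and 0 lower at an unadjusted p under 0.05. Their median log2 fold changes were 0.10 and 0.14, and 40 and 69 of them lay above 0. With replicate 3 of both gels left out, 12 and 35 of them were called higher, against 2.78% of all genes, and 0 lower. In replicate 3 these lists lay below replicates 1 and 2 on 0.5 kPa, by a median of -0.35 for the respiratory chain and -0.21 for the ribosomal proteins, and above them on 4 kPa, by 0.10 and 0.26. The part of these libraries in the lists' values was not tested. The genes of cholesterol and fatty acid synthesis gave 0 calls in edgeR among 37 (12 lower and 1 higher at an unadjusted p under 0.05, 5 lower in DESeq2), with 32 below 0 and a median of -0.19. With replicate 3 of both gels left out 10 were called lower, where 2.63% of all genes were.

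Of 25 nuclear and host noncoding RNAs 1 rose and 1 fell, with a median log2 fold change of 0.04 that lay below 0 in 4 settings, and 3 rose and 1 fell without both replicate 3 libraries. MALAT1 (chr11:65497688-65506516), a long noncoding RNA of nuclear speckles, had 4005, 3377 and 3570 CPM on 0.5 kPa, against 1670, 1286 and 2144 CPM on 4 kPa. Each library of the softer gel held more than each of the 4 kPa gel (log2 fold change 1.10 ± 0.15, adjusted p = 0.00164, and 1.32 with an adjusted p of 2.68e-06 without both replicate 3 libraries), and MALAT1 took 0.340% to 0.402% of all counts on 0.5 kPa and 0.129% to 0.217% on 4 kPa. Summed transcript counts gave MALAT1 the other sign, without a call. Of 40 CLK kinases, SR proteins and other splicing factors 5 rose and 1 fell, with a median of 0.04 that lay just below 0 in 1 setting, and 5 rose and 3 fell without both replicate 3 libraries. CLK1, a kinase that phosphorylates SR proteins, had 80.8, 82.1 and 92.03 CPM on 0.5 kPa, against 40.4, 43.2 and 43.8 CPM on 4 kPa (log2 fold change 1.00 ± 0.08, adjusted p = 1.86e-05). CLK4, its close relative, averaged 20.3 ± 1.99 CPM on 0.5 kPa and 12.3 ± 1.17 CPM on 4 kPa and rose (log2 fold change 0.73 ± 0.10, adjusted p = 0.0027). The splicing factors LUC7L3, PPIG and PNISR rose by 0.49, 0.44 and 0.38, and SRSF6 fell by 0.31, with adjusted p of 0.0923 for LUC7L3, 0.148 for PPIG and 0.22 for PNISR with 4 kPa replicate 2 left out and 0.171 for SRSF6 with 0.5 kPa replicate 2 left out. PNISR and SRSF6 were chosen after their values were seen. MIR22HG, the host transcript of miR-22, averaged 13.8 ± 0.424 CPM on 0.5 kPa and 21.9 ± 0.494 CPM on 4 kPa and fell (log2 fold change -0.67 ± 0.09, adjusted p = 0.00229). RN7SL2, a signal recognition particle RNA with near-identical copies, averaged 8.46 ± 1.36 CPM on 0.5 kPa and 4.31 ± 0.0989 CPM on 4 kPa and rose (log2 fold change 0.97 ± 0.15, adjusted p = 0.00395), which in a library of polyadenylated RNA reads only the part of it that was captured.

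The called genes differed in base composition. Among protein-coding genes outside the mitochondrion, the longest annotated transcript had a median GC content of 40.7% in the 110 genes that rose and 54.3% in the 163 that fell, against 48.3% over all tested. The median length of these transcripts was 4526, 3443 and 3734 bases. When genes of at least 5 CPM were split into 5 equal bins by GC content, the bin with the lowest GC held 50 genes that rose and 5 that fell, and the bin with the highest held 10 and 43. The libraries themselves moved with GC content. In the lowest bin 0.5 kPa replicate 3 lay at a median of 0.08 and 4 kPa replicate 3 at -0.08 from the 6-library mean on the log2 scale, and in the highest bin at -0.09 and 0.10, whereas the other 4 libraries stayed within 0.06 of 0. With replicate 3 of both gels left out the median GC content of called genes was 46.9% for genes that rose and 51.8% for those that fell.

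To measure the calls with this slope removed, each library's median deviation in 20 bins of GC content was entered as an offset, a setting chosen after seeing the data. It called 371 genes, 173 higher and 198 lower, of which 277 were among the 319, and their median GC content was 46.7% for genes that rose and 51.1% for those that fell. The lists kept their counts nearly as before, with 9 YAP and TAZ targets, 16 immediate early factors, 8 actin and SRF targets and 4 keratins lower, and 10 mitochondrial genes higher. Of 131 called genes followed one by one, 124 stayed called. The exceptions were PXN, DNAJB9, WNT7B, SAT1, LIMK2, ETV1 and LOXL2. CLK1, MALAT1, FN1, CTGF and KRT7 were among those that stayed called.

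**Figure D4:**
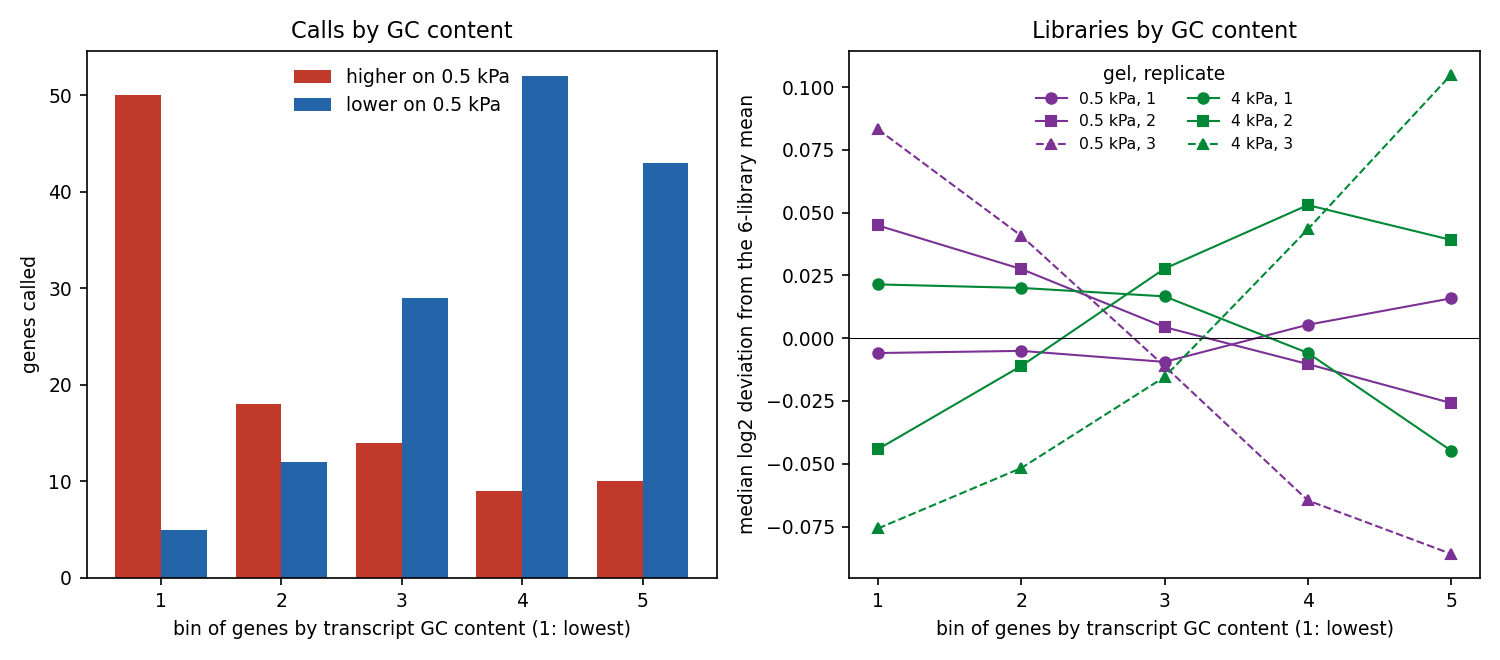
Left, number of called genes higher (red) and lower (blue) on 0.5 kPa in 5 bins of protein-coding genes of at least 5 CPM, ordered by GC content of the longest transcript. Right, median log2 deviation of each library of the pair from the 6-library mean in the same bins, with 0.5 kPa in purple, 4 kPa in green and replicate 3 dashed. The 2 dashed lines slope in opposite directions, between 0.08 and -0.09 for 0.5 kPa and between -0.08 and 0.10 for 4 kPa.

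Lists of immune genes held 1 or 2 calls each. The shares called were 6.25% of antigen presentation genes and 6.06% of interferon-stimulated genes. They were 9.09% of NF-kB cytokine genes and 9.52% of complement and iron handling genes, against 1.95% of all tested genes. HLA-DMB (chr6:32934629-32941070), a chaperone that loads peptide onto class II molecules, had 21.5, 20.9 and 24.96 CPM on 0.5 kPa, against 5.7, 7.07 and 11.3 CPM on 4 kPa (log2 fold change 1.48 ± 0.19, adjusted p = 0.00158). It was the one call among 16 antigen presentation genes, of which 14 lay above 0 with a median log2 fold change of 0.22. With replicate 3 of both gels left out 6 were called higher and 1 lower. Of 33 interferon-stimulated genes 29 lay above 0 with a median of 0.12, 1 rose and 1 fell, and 5 rose and 1 fell with replicate 3 of both gels left out. GBP3, a guanylate-binding GTPase, rose by 0.44 and STAT2, a signal transducer of interferon, fell by 0.29, with adjusted p of 0.163 for GBP3 with 4 kPa replicate 2 left out and 0.176 for STAT2 with 0.5 kPa replicate 2 left out. CP, the copper-carrying ferroxidase ceruloplasmin, had 95.4, 112 and 131 CPM on 0.5 kPa, against 58.1, 61.2 and 53.5 CPM on 4 kPa (log2 fold change 0.97 ± 0.12, adjusted p = 7.27e-04). Of 22 NF-kB cytokine genes LIF and NFKBIZ fell, and 5 fell and 2 rose with replicate 3 of both gels left out. NFKBIZ, a nuclear cofactor of NF-kB, had 30.02, 27.4 and 32.7 CPM on 0.5 kPa, against 51.7, 48.5 and 51.5 CPM on 4 kPa (log2 fold change -0.75 ± 0.08, adjusted p = 2.62e-04). SOCS3, the feedback inhibitor of JAK and STAT signalling, had 11.00, 12.7 and 10.7 CPM on 0.5 kPa, against 23.5, 23.9 and 26.98 CPM on 4 kPa (log2 fold change -1.11 ± 0.10, adjusted p = 5.72e-05). BIRC3, an inhibitor of apoptosis in the study's text, had 11.8, 10.9 and 22.5 CPM on 0.5 kPa, against 7.45, 6.43 and 10.4 CPM on 4 kPa, with replicate 3 the highest on each gel, and did not pass (log2 fold change 0.90 ± 0.25, adjusted p = 0.095). It was called with replicate 3 of both gels left out (0.71, adjusted p = 0.00385) and by DESeq2 (adjusted p = 0.0107).

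The lists of signalling, transport and stress genes below are short. The share called lay between 2.13% for clathrin endocytosis and 14.3% for the Wnt pathway, against 1.95% of all tested genes. Of 35 Wnt pathway genes 2 rose and 3 fell, and 1 rose and 3 fell without both replicate 3 libraries. DKK1, a secreted Wnt inhibitor, had 25.8, 24.4 and 26.5 CPM on 0.5 kPa, against 46.5, 42.6 and 63.7 CPM on 4 kPa (log2 fold change -0.99 ± 0.13, adjusted p = 0.00177). The Wnt receptors FZD1 and FZD8 rose by 0.52 and 0.57 (FZD8 named after its value was seen), and the ligand WNT7B and corepressor TLE1 fell by 0.34 and 0.35. All 4 lost the call with some library left out, with adjusted p of 0.213 for FZD1, 0.197 for WNT7B and 0.0882 for TLE1 with 0.5 kPa replicate 2 left out and 0.174 for FZD8 with 4 kPa replicate 2 left out. IGFBP5, which binds insulin-like growth factors, had 5.5, 5.32 and 8.43 CPM on 0.5 kPa, against 12.8, 14.1 and 18.5 CPM on 4 kPa (log2 fold change -1.24 ± 0.18, adjusted p = 0.00315). STC1, the hormone stanniocalcin-1, averaged 24.98 ± 2.98 CPM on 0.5 kPa and 16.3 ± 1.09 CPM on 4 kPa and rose (log2 fold change 0.61 ± 0.11, adjusted p = 0.0114), with an adjusted p of 0.0678 with 0.5 kPa replicate 2 left out (call lost in 1 of 9 such fits). Among hypoxia-responsive genes ADM, which encodes the peptide adrenomedullin, fell (log2 fold change -0.79 ± 0.10, adjusted p = 0.00121) and ANGPTL4, a lipoprotein lipase inhibitor, rose (log2 fold change 0.80 ± 0.13, adjusted p = 0.0067). SLC7A2, which carries cationic amino acids into cells, had 45.05, 47.8 and 57.1 CPM on 0.5 kPa, against 22.2, 27.1 and 25.9 CPM on 4 kPa (log2 fold change 1.00 ± 0.13, adjusted p = 0.00162). LTBP1, which tethers latent TGF-beta to the matrix, rose by 0.43 with an adjusted p of 0.112 with 0.5 kPa replicate 2 left out (call lost in 1 of 9 such fits). GADD45B, a stress sensor, and CRYAB, a small heat shock protein, fell by 0.77 and 0.73, with adjusted p of 0.0989 for GADD45B and 0.0632 for CRYAB with 0.5 kPa replicate 2 left out. EHD4, an endocytic ATPase, fell by 0.45, and SAT1, which acetylates polyamines, and DNAJB9, a chaperone cofactor of the endoplasmic reticulum, rose by 0.40 and 0.42, with adjusted p of 0.0968 for EHD4, 0.193 for SAT1 and 0.226 for DNAJB9 with 4 kPa replicate 2 left out.

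The largest rises by the naming rule also included transcripts of little known function. AC245060.5, annotated as a long intergenic RNA on chromosome 22, had 12.8, 11.9 and 13.3 CPM on 0.5 kPa, against 3.65, 1.96 and 3.42 CPM on 4 kPa (log2 fold change 2.07 ± 0.18, adjusted p = 4.95e-05). ANKRD36B, of a family of near copies on chromosome 2, averaged 17.8 ± 2.73 CPM on 0.5 kPa and 8.9 ± 0.374 CPM on 4 kPa (log2 fold change 1.00 ± 0.14, adjusted p = 0.00189), and C2orf88, a small membrane protein that binds protein kinase A, averaged 56.1 ± 12.8 CPM on 0.5 kPa and 26.4 ± 5.41 CPM on 4 kPa (log2 fold change 1.09 ± 0.17, adjusted p = 0.00411). SLC37A2, a sugar phosphate transporter, averaged 8.81 ± 3.13 CPM on 0.5 kPa and 3.71 ± 1.17 CPM on 4 kPa, with replicate 3 highest on each gel and an adjusted p of 0.136 with 4 kPa replicate 2 left out (call lost in 4 of 9 such fits). SPCS2P4, a processed pseudogene whose reads may come from its parent gene, and AL033397.1 rose by 1.63 and 0.95, with adjusted p of 0.12 for SPCS2P4 and 0.0617 for AL033397.1 with 4 kPa replicate 2 left out. Among the falls, TUFT1, a protein first found in developing tooth enamel, had 23.2, 20.9 and 24.5 CPM on 0.5 kPa, against 48.9, 45.6 and 52.5 CPM on 4 kPa (log2 fold change -1.10 ± 0.08, adjusted p = 1.86e-05). LMCD1, a LIM-domain corepressor of GATA factors, averaged 3.56 ± 0.531 CPM on 0.5 kPa and 7.63 ± 0.824 CPM on 4 kPa (log2 fold change -1.10 ± 0.15, adjusted p = 0.00162).

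Several gene groups gave no or few calls, where 1.95% of all tested genes were called. At that share a list this short can hold no call, so a count of 0 does not set a group apart. EdgeR called 0 of 27 EMT and cadherin genes (2 higher and 1 lower at an unadjusted p under 0.05, 1 lower in DESeq2), 0 of 37 ATF4 stress genes (3 lower, 0 in DESeq2) and 0 of 39 BCL2 family and death receptor genes (3 higher and 4 lower, and 2 higher and 1 lower in DESeq2). It also called 0 of the 23 ABC drug transporters tested, of 25 listed (2 higher, 0 in DESeq2). Listed genes removed by the count filter were not tested, and no value is given here for ABCB1 or ABCB4. EdgeR called 0 of 51 G1 and S phase genes (1 higher and 2 lower, 1 higher in DESeq2). It called 0 of 25 citric acid cycle enzymes (4 lower, 1 in DESeq2) and 0 of 19 glycolysis enzymes (5 lower, 0 in DESeq2). Of these lists the ATF4 genes had the most calls, 2 higher and 3 lower, with replicate 3 of both gels left out. Of 55 G2 and mitosis genes CENPE and KIF20B, both kinesins, rose by 0.53 and 0.48, with adjusted p of 0.0495 for CENPE with 4 kPa replicate 2 left out and 0.173 for KIF20B with 0.5 kPa replicate 2 left out. CENPE held its call and KIF20B did not. Of 17 genes listed from the study's text 15 were tested, and PXN was the one called in edgeR (2 higher and 4 lower at an unadjusted p under 0.05). DESeq2 called 1 higher and 2 lower, as did edgeR with replicate 3 of both gels left out. ERBB2 had 3906, 4293 and 4064 CPM on 0.5 kPa, against 3772, 3943 and 3100 CPM on 4 kPa (log2 fold change 0.18 ± 0.09, adjusted p = 0.416). VIM, vimentin, had 1694, 1607 and 1747 CPM on 0.5 kPa, against 1570, 1617 and 1955 CPM on 4 kPa (log2 fold change -0.03 ± 0.09, adjusted p = 0.937). CDH1, E-cadherin, had 12.7, 13.5 and 17.8 CPM on 0.5 kPa, against 13.6, 13.1 and 11.8 CPM on 4 kPa (log2 fold change 0.20 ± 0.13, adjusted p = 0.569). BCL2, MAP3K5, PIK3R1, AKT1 and CTNNB1 had log2 fold changes of 0.26 ± 0.14, 0.22 ± 0.10, 0.28 ± 0.13, -0.14 ± 0.08 and -0.12 ± 0.07, with adjusted p between 0.342 and 0.512. A p above the threshold does not show that these genes were equal on the gels.

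**Figure D5:**
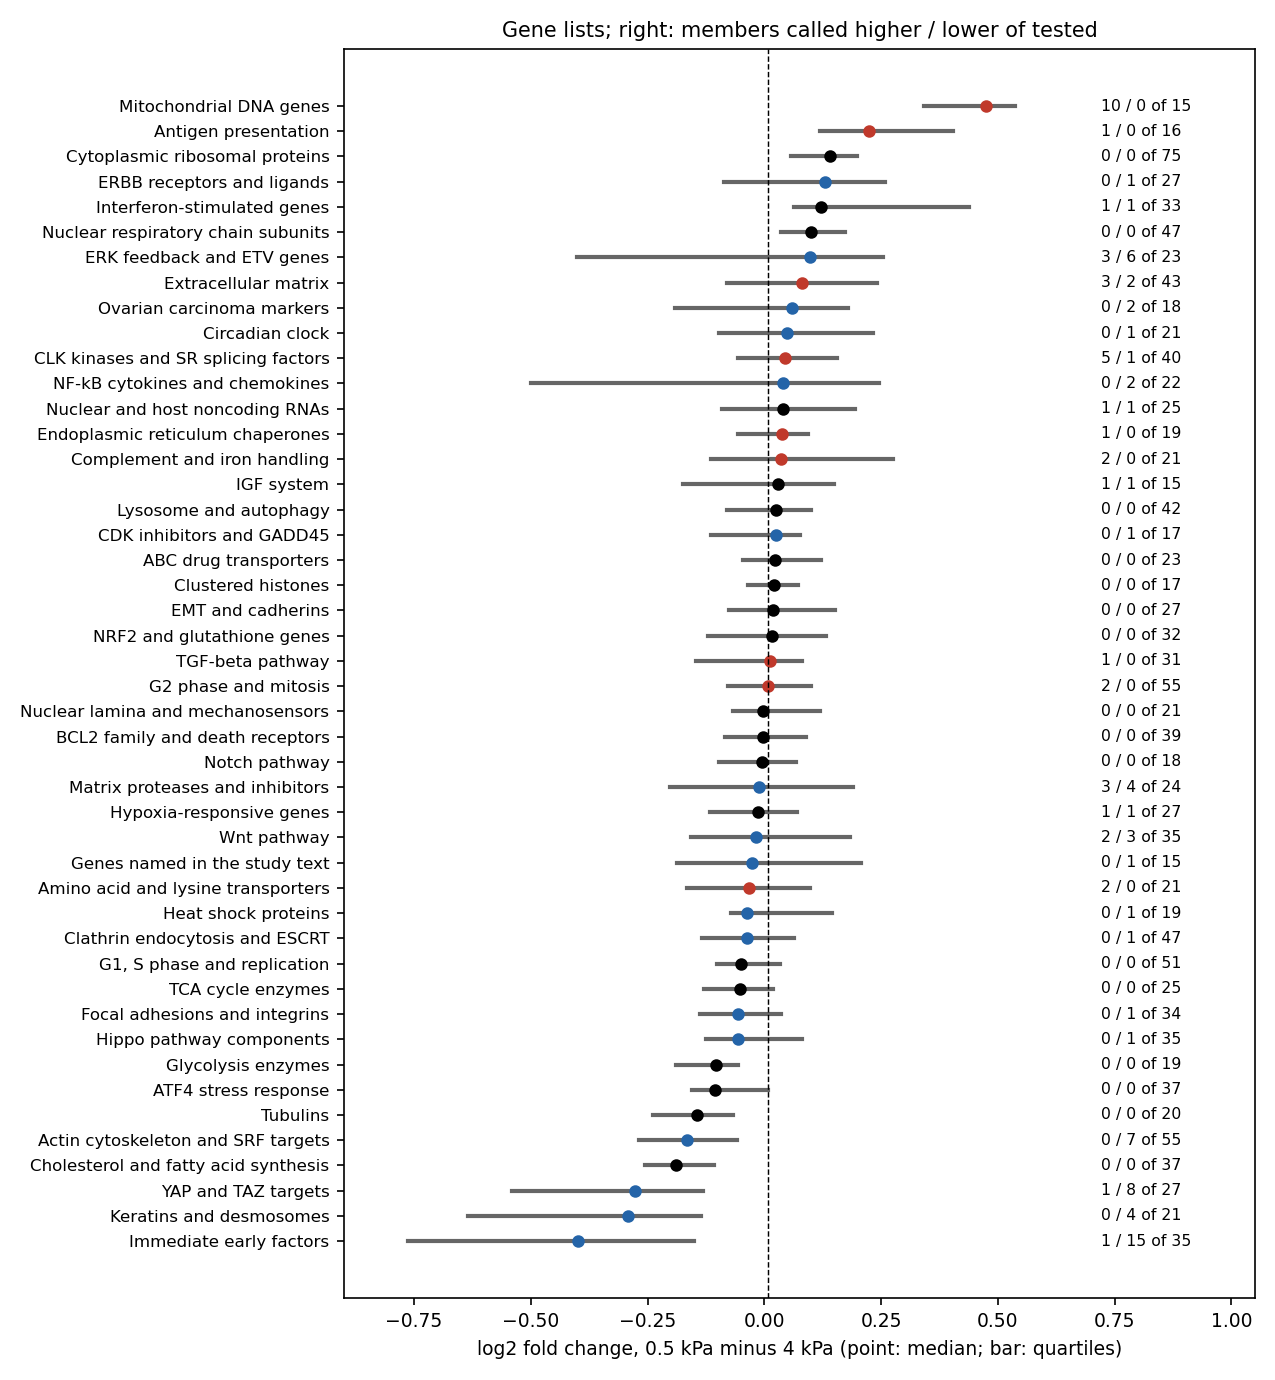
Median (point) and quartiles (bar) of the log2 fold change, 0.5 kPa minus 4 kPa, of the tested members of each gene list with at least 15 of them, beside the number called higher and lower of those tested. Points are red where more members rose, blue where more fell and black otherwise, and the dashed line is the median of all tested genes (0.01). Mitochondrial DNA genes stand highest at 0.47 and immediate early factors lowest at -0.40.

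Of the marker genes of other lines and cells, CA12, a carbonic anhydrase listed for MCF-7, rose (log2 fold change 0.35 ± 0.07, adjusted p = 0.0274), with an adjusted p of 0.156 with 0.5 kPa replicate 2 left out (call lost in 5 of 9 such fits), while ESR1 had 81.2, 80.3 and 94.9 CPM on 0.5 kPa, against 73.00, 77.5 and 67.2 CPM on 4 kPa and did not pass (log2 fold change 0.24 ± 0.08, adjusted p = 0.219). FOLR1, the folate receptor of ovarian carcinoma, had 31.4, 25.9 and 23.9 CPM on 0.5 kPa, against 47.2, 51.4 and 58.7 CPM on 4 kPa and fell (log2 fold change -0.95 ± 0.12, adjusted p = 0.00158). CD24, a surface glycoprotein, had 528, 515 and 382 CPM on 0.5 kPa, against 762, 721 and 572 CPM on 4 kPa, with replicate 3 lowest on each gel, and did not pass (log2 fold change -0.53 ± 0.13, adjusted p = 0.0556). It was called with both replicate 3 libraries left out (-0.51, adjusted p = 2.16e-04) and by DESeq2 (adjusted p = 0.00261).

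Levels on the 25 kPa gel are given side by side, without a test, because that comparison shares libraries with this one. Some genes stood high on 4 kPa and near or below the 0.5 kPa level on 25 kPa. EGR1 averaged 238 ± 23.8 CPM on 0.5 kPa, 809.7 ± 85.4 CPM on 4 kPa and 168 ± 16.4 CPM on 25 kPa. FOS averaged 20.7 ± 2.9 CPM on 0.5 kPa, 60.6 ± 1.91 CPM on 4 kPa and 12.5 ± 2.72 CPM on 25 kPa. CSRNP1 and NFKBIZ were also similar on 0.5 and 25 kPa, with 8.69 ± 0.749 CPM on 25 kPa for CSRNP1 and 27.4 ± 0.476 CPM on 25 kPa for NFKBIZ, within 1 CPM and 3 CPM of their means on 0.5 kPa. CTGF and DUSP1 lay between, with 91.4 ± 4.37 CPM on 25 kPa for CTGF and 105 ± 8.32 CPM on 25 kPa for DUSP1, closer to 0.5 kPa than to 4 kPa. In other genes the 4 kPa level was nearer that of 25 kPa. KRT7 averaged 242 ± 19.8 CPM on 0.5 kPa, 539 ± 59.1 CPM on 4 kPa and 671 ± 70.8 CPM on 25 kPa. ANKRD1 averaged 12.4 ± 1.36 CPM on 0.5 kPa, 34.6 ± 7.18 CPM on 4 kPa and 39.8 ± 0.297 CPM on 25 kPa. Among genes that rose, FN1 averaged 2869 ± 597 CPM on 0.5 kPa, 1487 ± 195 CPM on 4 kPa and 1179 ± 125 CPM on 25 kPa and MMP2 averaged 109.5 ± 6.93 CPM on 0.5 kPa, 61.2 ± 4.79 CPM on 4 kPa and 44.1 ± 1.13 CPM on 25 kPa, so that both means were lower at each step in stiffness. CLK1 differed from these, with 84.99 ± 6.13 CPM on 0.5 kPa, 42.4 ± 1.79 CPM on 4 kPa and 76.5 ± 3.81 CPM on 25 kPa, which is low on 4 kPa alone.

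By kind of gene, 283 of 13380 protein-coding genes were called, 120 higher and 163 lower (2.12%) as were 16 of 707 long intergenic RNAs, 10 higher and 6 lower (2.26%). Of 442 processed pseudogenes 5 were called, all 5 higher. By chromosome, the mitochondrial genome had 66.7% of its tested genes called and the nuclear chromosomes with at least 10 tested genes between 1.04% and 3.30%.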

How the data were processed

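SKOV-3 cells on 0.5, 4 and 25 kPa gels were profiled by RNA-seq of polyadenylated RNA, with 3 libraries per gel. The submitters' processing notes name bcl2fastq, FastQC 0.11.5, HISAT2 2.1.0 and build hg38, and no source used here gives the counting program, its strand setting or the annotation. The authors deposited raw counts per gene, 1 column per library, which were used as they stand. The FPKM values per gene were scaled to length and library by the authors and served for levels per length and 1 alternative. The deposited transcript table holds estimated counts per transcript, including merged assemblies, and was summed per gene as an alternative. A further 3 value columns in each table could be tied to none of the libraries and were left aside.

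Counts of genes kept by filterByExpr were scaled by TMM and fitted over all 9 libraries with edgeR 4.0.16 (R 4.3.3, glmQLFit and glmQLFTest, robust off). The contrast was 0.5 kPa minus 4 kPa, with Benjamini-Hochberg adjustment over 16335 genes and a threshold of 0.05. CPM used TMM-scaled library sizes and log2 CPM a prior count of 2. DESeq2 1.42.0, limma 3.58.1 on log2 FPKM and other filters, scalings and library sets were alternatives. GC offsets per library, in 20 bins, were added after seeing the data. Gene types and transcript GC content came from GENCODE v29 (16319 of 16335 genes matched) and promoters from RefSeq GRCh38.p14 (11573 matched, the start site nearest to the gene's 5′ end being used where there were several). The count test was tested on simulated data. Figures were drawn with Python 3.11.15 and matplotlib 3.10.9.

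The named genes are up to 15 called genes with the largest rise and fall, of at least 5 CPM and with no overlap between the gels, up to 4 called members of each of 50 lists by adjusted p, and the genes of the study's text and marker lists. Some genes that met this rule are not reported here. Others are said to be chosen after their values were seen. The members and lists were chosen with earlier results of these data known. The study's own criterion was at least 2-fold at an unadjusted p under 0.05, which 178 genes met, 87 higher and 91 lower. The 19609740 to 20609553 counts per library of the pair limit precision for genes near 1 CPM.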

Additional observations from a re-analysis of the deposited data

How the results depend on the processing

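Against 319 genes called and 57 changed at least 2-fold, DESeq2 called 484 genes and a fit without a count filter called 741, 149 of them at least 2-fold. The fit of the 6 libraries alone called 176. Log2 values of FPKM plus 1 gave 26 genes of at least 2-fold, and without a filter 165 calls and 25 of at least 2-fold. Summed transcript counts gave 31 calls and 22 of at least 2-fold. Leaving out both replicate 3 libraries gave 892 and 112, and an unadjusted p under 0.05 gave 2236 and 178. With a single library left out the calls ranged between 125 and 543 and the 2-fold changes between 45 and 89. Apart from the replicate block below, the other settings stayed within 1.5 times of both counts, among them the GC offsets added after seeing the data (371 and 57). The cause of these shifts was not tested.

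The replicate number as a block gave 199 calls with the 6 libraries of the pair and 141 with all 9. The deviations of same-numbered libraries from their gel means correlated at -0.13, 0.35 and 0.18 over 11243 genes. Replicates 2 and 3 of each gel, but not replicate 1, correlated best with their own number. Deviations from means of 3 libraries depend on each other, so these values cannot decide whether the numbers pair the libraries.

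Of 131 called genes followed one by one, each kept its direction wherever it was tested (121 of them in the filtered FPKM fits and without mitochondrial genes, 125 with 10 counts in every library), except in the summed transcript counts, where 9 turned: MALAT1 at -4.35, ANKRD36B at -1.06, TUFT1 at 0.0131, LIF at 0.255, GBP3 at -0.113, KLF6 at 0.727, LOXL2 at 0.0568, PNISR at -0.247 and GOLGA4 at -0.773. Of these, KLF6 was called there. The call was kept by 84 of the 131 in the fit of the 6 libraries alone, 91 and 79 with the replicate block on 6 and 9 libraries, 103 and 106 in the filtered FPKM fits, 61 in the unfiltered one, 17 in the summed transcript counts, between 70 and 125 with 1 library left out, 126 without both replicate 3 libraries and at least 120 in the other settings. No source used here says how reads were assigned to transcripts. In simulated counts for this comparison over 16091 genes, 85.07% of genes of at least 5 CPM changed 1.5-fold were recovered and 100% at 2-fold. The same simulation called 18 genes that had not been changed. Its libraries were drawn independently, without the shared shifts of replicate 3 or the slope with GC content. Smaller changes or other depths were not simulated.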

Other observations

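Several secreted and membrane proteins outside the gene lists changed, and all of the genes in this section were chosen after their values were seen. CHGA, the chromogranin of neuroendocrine granules, averaged 4.71 ± 1.56 CPM on 0.5 kPa and 1.24 ± 0.242 CPM on 4 kPa (log2 fold change 1.92 ± 0.27, adjusted p = 0.00239). The aminopeptidase ANPEP (CD13) had 236, 259.8 and 221 CPM on 0.5 kPa, against 154, 162 and 135 CPM on 4 kPa and rose (log2 fold change 0.67 ± 0.08, adjusted p = 0.00112). Its libraries did not overlap between gels, and it averaged 136 ± 2.72 CPM on 25 kPa. The dipeptidyl peptidase DPP4 (CD26), the protease inhibitor SLPI and the Kelch-like protein KLHL14 rose by 0.59, 0.68 and 0.58 on the log2 scale, with adjusted p of 0.0768 for DPP4 and 0.0872 for SLPI with 4 kPa replicate 2 left out and 0.159 for KLHL14 with 0.5 kPa replicate 2 left out. EDN2, encoding endothelin-2, averaged 0.379 ± 0.3 CPM on 0.5 kPa and 2.34 ± 0.627 CPM on 4 kPa and fell with EDN1 (log2 fold change -2.61 ± 0.42, adjusted p = 0.00635). FSTL1, a secreted glycoprotein, had 899.8, 892 and 852 CPM on 0.5 kPa, against 1403, 1346 and 1140 CPM on 4 kPa and fell (log2 fold change -0.56 ± 0.08, adjusted p = 0.00411). S1PR1, a receptor for sphingosine 1-phosphate, averaged 4.74 ± 0.961 CPM on 0.5 kPa and 9.44 ± 1.37 CPM on 4 kPa (log2 fold change -0.99 ± 0.16, adjusted p = 0.00511). The troponins TNNC1 and TNNT2 were near 1 CPM on the softer gel and fell by 1.56 and 1.27, with adjusted p of 0.0679 for TNNC1 with 0.5 kPa replicate 1 left out and 0.1 for TNNT2 with 4 kPa replicate 2 left out.

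Among gene families, 9 pregnancy-specific glycoprotein (PSG) genes were tested, all below 0 with a median log2 fold change of -0.71. PSG4, PSG5 and PSG9 fell, with adjusted p of 0.0589 for PSG4, 0.121 for PSG5 and 0.191 for PSG9 with 0.5 kPa replicate 2 left out, and 5 fell with replicate 3 of both gels left out. These genes are near copies of each other, so how reads were divided among them is uncertain. Of 470 genes with symbols beginning with ZNF, which mostly encode zinc finger repressors, 8 rose and 2 fell, and 339 lay above 0 with a median of 0.11. Their median GC content was 43.0%, and with the GC offsets the median was 0.08. ANKRD36B, ANKRD36C and ANKRD36 all rose, with a median of 0.69, and 2 of the 3 kept the call with the GC offsets. AKAP9, a scaffold of the centrosome and Golgi, averaged 75.03 ± 4.73 CPM on 0.5 kPa and 50.9 ± 3.48 CPM on 4 kPa and rose (log2 fold change 0.56 ± 0.08, adjusted p = 0.00327). The centrosomal CEP290, the golgin GOLGA4 and the chromatin remodeller ATRX rose by 0.47, 0.51 and 0.46, with adjusted p of 0.0798 for CEP290, 0.0797 for GOLGA4 and 0.0917 for ATRX with 4 kPa replicate 2 left out. No explanation was tested for any of these values.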
